A study of Mus musculus with 7 samples.

Results

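The Dlk1-Meg3 cluster is an imprinted domain of mouse chromosome 12, and its 6 long genes Meg3, Rian, Mirg, Dlk1, Rtl1 and Dio3 were followed through RNA sequencing of cochlear supporting cells. The genes were taken by name from the 48709 genes of the deposited tables, and all 6 matched. They were chosen by the difference of Meg3 and Rian between TSA and GSK-343 libraries, so their values in that comparison are given as a description with no p. The same TSA and GSK-343 libraries enter the comparisons with DMSO. The adjusted p of the 6 genes there do not account for this choice. Of the 6 genes, 5 had a count in any library, and 4 (Meg3, Rian, Mirg and Rtl1) passed the filter on low counts, as did 14907 genes in all.

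The cells came from mouse cochleae taken at postnatal day 1 and cultured as whole organs for 48 h. Of the 7 libraries, 2 were from organs given 200 nM TSA (trichostatin A, an inhibitor of histone deacetylases). GSK-343, an inhibitor of the histone methyltransferase EZH2, was given at 10 µM to 3, and 2 received as much DMSO, the solvent. All groups shared the same medium with N2, B27, EGF and FGF, and the cells were sorted for GFP after trypsin digestion. The labels do not name the strain or the GFP line. They also leave unsaid what a replicate is (an animal, a culture or a repeat preparation), so each p reflects only how far these particular libraries spread, which may be technical.

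In an imprinted domain each gene is read mainly from the chromosome inherited from 1 parent. Here the maternal chromosome gives the non-coding RNAs Meg3, Rian and Mirg together with many small RNAs, and the paternal chromosome gives the protein-coding genes Dlk1, Rtl1 and Dio3. A stretch between Dlk1 and Meg3 that is methylated on the paternal chromosome sets this pattern. Meg3 RNA has been described in the developing inner ear, and the enzyme made from Dio3 is known to protect the immature cochlea from thyroid hormone. The counts here do not separate the parental chromosomes.

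In mm10 coordinates of GENCODE M21, the cluster spans chr12:109452823-110281097, 828 kb from the start of Dlk1 to the end of Dio3. On the plus strand lie Dlk1 (chr12:109452823-109463336), Meg3 (chr12:109541001-109571726), Rian (chr12:109603940-109661716), Mirg (chr12:109729764-109749460) and Dio3 (chr12:110279068-110281097). Rtl1 (chr12:109589193-109600330) lies on the minus strand between Meg3 and Rian. The RefSeq tables (GRCm38.p6) place 58 miRNA hairpins in the interval, of which 14 lie in Mirg, 3 in Rian, 1 in Meg3 and 24 between Rian and Mirg on the map. A further 6 lie inside Rtl1 on the opposite strand. Mature forms of both miR-770 and miR-1906 lie in Meg3, though 1 hairpin is listed there.

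The starts of the 3 maternal RNAs are shown because these RNAs had their highest CPM in the same libraries. Each run covers 250 bases before and 50 bases after the RefSeq start, on the plus strand. Capitals mark matches on either strand to the cAMP response element TGACGTCA and to the TATA box TATAAA. The Meg3 window is chr12:109540746-109541045, the Rian window chr12:109603695-109603994 and the Mirg window chr12:109734731-109735030. The annotations differ for Mirg, whose RefSeq start lies 5.2 kb inside the GENCODE span given above.
Meg3: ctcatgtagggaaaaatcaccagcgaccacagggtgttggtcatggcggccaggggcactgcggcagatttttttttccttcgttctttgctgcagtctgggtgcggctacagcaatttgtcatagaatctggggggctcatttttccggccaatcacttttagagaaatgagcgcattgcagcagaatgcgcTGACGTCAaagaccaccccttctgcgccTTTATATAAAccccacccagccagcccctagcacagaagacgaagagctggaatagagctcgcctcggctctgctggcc
Rian: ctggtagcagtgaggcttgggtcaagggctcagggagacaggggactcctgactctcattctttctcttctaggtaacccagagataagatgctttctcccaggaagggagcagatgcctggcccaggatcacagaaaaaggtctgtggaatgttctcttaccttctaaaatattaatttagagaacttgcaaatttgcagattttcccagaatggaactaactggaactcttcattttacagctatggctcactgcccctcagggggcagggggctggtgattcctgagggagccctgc
Mirg: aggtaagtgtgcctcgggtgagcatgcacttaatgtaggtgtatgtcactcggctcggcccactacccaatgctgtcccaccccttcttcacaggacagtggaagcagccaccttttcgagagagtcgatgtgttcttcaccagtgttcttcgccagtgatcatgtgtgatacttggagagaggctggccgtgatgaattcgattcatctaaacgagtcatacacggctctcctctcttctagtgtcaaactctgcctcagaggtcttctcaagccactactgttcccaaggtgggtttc
The Meg3 window held a cAMP response element that begins 57 bases before the start. It also held a TATA box that begins 25 bases before the start and overlaps a match on the other strand. RefSeq also lists a start of Meg3 4.4 kb further on (window chr12:109545148-109545447, not printed), with 1 CpG site. Neither motif was found in that window or in the Rian or Mirg windows. Among all 32851 windows of this length in the table, 1.79% held the first motif and 13.6% the second. The printed Meg3 window had 13 CpG sites, the Mirg window 10 and the Rian window 0, against a median of 7 over all windows.

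Some of the small RNAs that lie opposite Rtl1 are shown because they bear on how Rtl1 counts can be read: 5 of 11 mature forms, 1 arm from each of 5 hairpins, with miR-432 of the remaining hairpin not shown. These mature forms are fully complementary to Rtl1 RNA by position, and capitals mark the seed, bases 2 to 8.
miR-431-5p: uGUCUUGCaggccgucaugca
miR-433-3p: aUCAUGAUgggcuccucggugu
miR-127-3p: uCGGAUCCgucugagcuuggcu
miR-434-3p: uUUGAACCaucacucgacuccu
miR-136-5p: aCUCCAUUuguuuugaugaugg
No seed is shared among these 5. Over the whole interval, 113 mature miRNA names carried 104 different seeds, and 9 seeds occurred in more than 1 name. A pair of such seeds comes from the hairpin of miR-379, between Rian and Mirg, each shared with a nearby miRNA.
miR-379-5p: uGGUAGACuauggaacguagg
miR-1193-5p: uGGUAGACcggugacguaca
miR-379-3p: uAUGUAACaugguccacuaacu
miR-411-3p: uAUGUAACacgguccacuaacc
Mature miRNAs were not measured. Of the 67 miRNA genes of the interval in the deposited tables, 4 had any count, with 3.94 expected counts over all 7 libraries, and of 23 small nucleolar RNA genes 4 had any count, with 4.39.

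Expression below is in CPM, counts scaled to library size with TMM factors. A tested change is a log2 fold change ± SE from edgeR's quasi-likelihood test, with a Benjamini-Hochberg adjusted p over the 14907 genes and a threshold of 0.05. Libraries held 2724381 to 2963228 expected counts with TSA, 3398893 to 4248336 with GSK-343 and 5124247 to 5974230 with DMSO. The DMSO libraries appear to have been quantified with another read layout, which the labels do not name. In the deposited tables a gene's length exceeded its effective length by 208.21 to 212.69 bases in the treated libraries, against 49 bases in the DMSO libraries. This difference and the treatment cannot be told apart in any comparison with DMSO. None of 30 supporting cell markers was at 0 in any library. Sox9, a transcription factor of these cells, had 354 and 485 CPM with TSA, 532 to 744 with GSK-343, and 772 and 1047 with DMSO.

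With TSA, Meg3 and Rian were higher than with DMSO. With GSK-343, Rian and Rtl1 were lower than in DMSO, and Meg3 counts did not differ beyond their spread. Rtl1 entered that test through its TSA libraries. The cluster as a whole took 4.07 and 3.53 of every 10000 expected counts with TSA, 0.294, 0.393 and 0.113 under GSK-343, and 0.299 and 0.634 with DMSO. In these bulk samples, fewer cells with an RNA and less of it per cell cannot be told apart.

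Meg3, a long non-coding RNA also known as Gtl2 and the RNA nearest to the methylated control region, had 211 and 182 CPM in the TSA libraries. GSK-343 libraries had 27.2, 31.4 and 9.71 CPM, and DMSO libraries had 16.4 and 32.6 CPM. Both TSA libraries lay above all others, and the GSK-343 range overlapped the DMSO range. Meg3 rose by 3.01 ± 0.53 with TSA relative to DMSO (edgeR adjusted p = 0.00117). GSK-343 and DMSO means were 22.8 ± 11.5 and 24.5 ± 11.4 CPM (SD, n = 3 and 2), a difference of -0.10 ± 0.47 (edgeR adjusted p = 0.878). Set beside GSK-343, TSA libraries were 8.64-fold higher, given as a description.

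Rian, the host RNA of the cluster's box C/D small nucleolar RNAs and also called Meg8, had 83.2 and 111 CPM in TSA libraries. It had 1.13, 5.11 and 1.16 CPM in GSK-343 libraries and 19.3 and 28.2 CPM in DMSO libraries. The 3 groups did not overlap, with TSA highest and GSK-343 lowest. Rian rose by 2.03 ± 0.57 with TSA relative to DMSO (edgeR adjusted p = 0.0162). The call was lost without DMSO library 1 (1.81, adjusted p = 0.0991) or without TSA library 2 (1.85, adjusted p = 0.106), and alternatives gave adjusted p from 0.000919 to 0.106. With GSK-343 it fell by 3.24 on the log2 scale relative to DMSO (SE 0.57, edgeR adjusted p = 0.000585), and the fall passed the threshold with each library left out in turn. It missed it with limma on log2(TPM + 1) and on log2(TPM + 0.1), where the log2 values were -1.88 and -2.32 (adjusted p = 0.0529 and 0.0641). The expected counts behind these values were 297 and 377 in TSA libraries, 4, 21 and 5 in GSK-343 libraries and 85.56 and 108.34 in DMSO libraries. TSA libraries lay 38.5-fold above GSK-343 libraries, again as a description.

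Mirg, a non-coding RNA that hosts the distal group of miRNAs, had 33 and 27 expected counts with TSA, none in any library with GSK-343, and 0 and 13.06 with DMSO. In CPM the TSA libraries held 9.24 and 7.92, the DMSO libraries 0 and 3.39. The TSA libraries were above the DMSO libraries, but the difference of 2.34 ± 1.40 missed the threshold (edgeR adjusted p = 0.229). Relative to DMSO, Mirg was at least 2.24-fold lower with GSK-343 (edgeR adjusted p = 0.0327), where the bound sets 3 counts in each GSK-343 library. All its DMSO reads were in library 2. The groups overlap at 0, and the call was lost in 11 of 16 alternatives.

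Read against the background, 2 of the 4 tested genes (Meg3 and Rian) rose with TSA relative to DMSO, where 13.1% of all genes tested did. With GSK-343 relative to DMSO 3 of 4 (Rian, Mirg and Rtl1) fell, where 21.5% of all genes tested did. Mirg and Rtl1 passed the filter through their TSA libraries: with GSK-343 and DMSO fitted alone, 2 genes were tested and 1 (Rian) fell. Between TSA and GSK-343 all 4 tested genes lay past the threshold on the TSA side, where 5.04% of all genes did. Nothing is read from that last count, because the genes were picked with this comparison known. The comparisons share libraries: TSA and GSK-343 values also entered the choice of genes, and both comparisons with DMSO use the same 2 DMSO libraries.

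**Figure D1:**
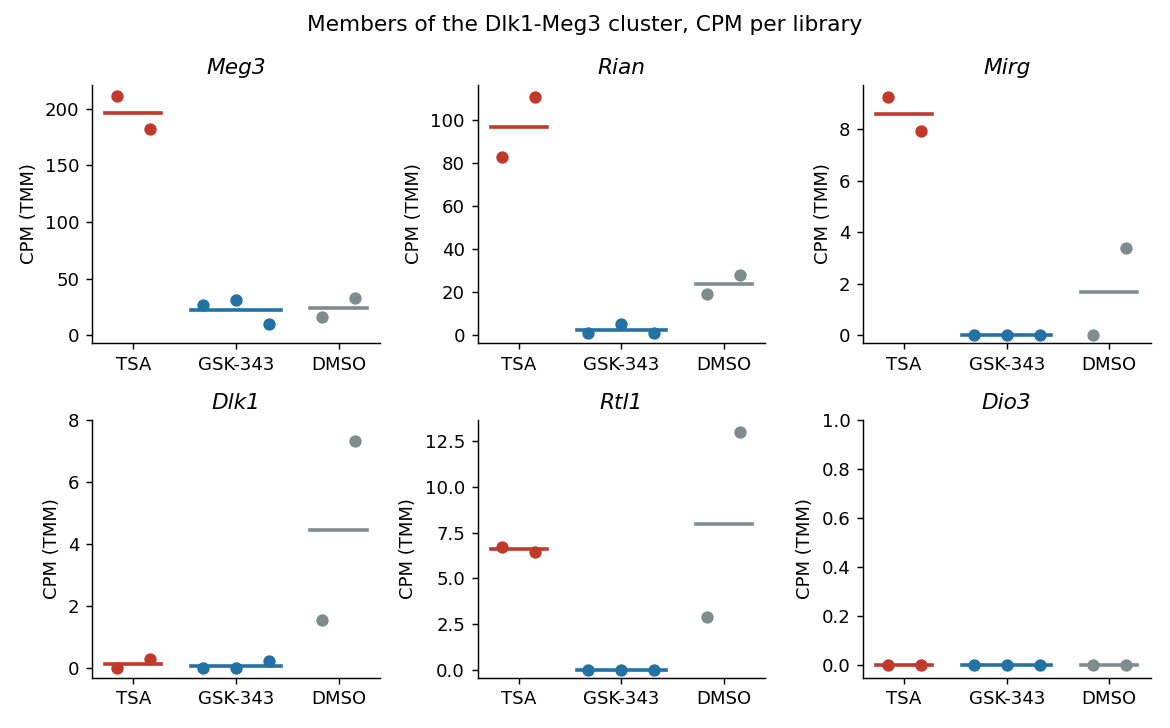
CPM (TMM-scaled, linear axes that differ between panels) of the 6 genes in each TSA, GSK-343 and DMSO library, with points for libraries and lines for group means. Both TSA libraries lie above all others for Meg3, Rian and Mirg, GSK-343 libraries are at 0 for Mirg and Rtl1, and Dio3 is at 0 in all 7.

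The paternal genes were scarce in every group. Rtl1, which encodes a retrotransposon-derived protein needed in the placenta, had 24 and 22 expected counts with TSA, none in the 3 GSK-343 libraries, and 13.06 and 50 with DMSO. TSA libraries stood at 6.72 and 6.45 CPM, GSK-343 libraries at 0, and DMSO libraries at 2.92 and 13.0 CPM. The TSA values lay between the DMSO values, and the difference of -0.27 ± 1.03 did not pass the test (edgeR adjusted p = 0.87). Rtl1 was at least 10.5-fold lower with GSK-343 than with DMSO (edgeR adjusted p = 0.00132, from 1.6e-05 to 0.0464 over 16 alternatives). Rtl1 passed the filter on low counts through its TSA libraries and was not tested with GSK-343 and DMSO fitted alone. Against DMSO library 1 alone the bound is 3.85-fold, and against library 2 alone 17.2-fold. Rtl1 was at least 8.69-fold higher with TSA than with GSK-343, as a description. The sources do not say that counting used strand, and the miRNA precursor RNA printed above as mature forms runs opposite to Rtl1, so reads of the 2 strands cannot be told apart.

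Dlk1, which encodes a membrane protein related to the Notch ligands, had 0 and 1 expected counts with TSA, 0, 0 and 1 under GSK-343, and 7 and 28 with DMSO. Both DMSO libraries were above all 5 treated libraries. It did not pass the filter on low counts, so the joint fit of 7 libraries gave it no test. Dlk1 was tested only in 5 alternatives, which used no such filter or left 1 library in a group. In the latter it passed the filter through its DMSO reads, the group where it is high, so their number is no support. With no low-count filter the log2 values were -5.19 with GSK-343 and -4.57 with TSA (edgeR adjusted p = 0.0227 and 0.133). DESeq2, also run without it, gave -5.67 and -4.92 (Wald test adjusted p = 0.0417 and 0.149). Dio3, the deiodinase that inactivates thyroid hormone, had 0 counts in all 7 libraries. A count of 0 allows up to 3 counts, or 0.84 and 0.88 CPM with TSA, 0.694 to 0.85 CPM with GSK-343 and 0.674 and 0.782 CPM with DMSO. These limits cover counting error only.

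Compared per length in the deposited TPM values of the TSA libraries, Meg3 stood at 658 ± 111, Rian at 161 ± 30.0, Mirg at 16.7 ± 1.96, Rtl1 at 2.46 ± 0.382 and Dlk1 at 0.085 ± 0.12 (SD, n = 2). The ranges of neighbours in that order did not overlap. Among the cluster's counts, Meg3 made up 68.1% and 59.2% in TSA libraries, 96.0%, 86.0% and 87.5% in GSK-343 libraries, and 40.8% and 38.6% in DMSO libraries. The share of Rian was 26.8% and 36.0% in TSA libraries, 4.0%, 14% and 10.4% under GSK-343, and 47.9% and 33.4% in DMSO libraries. For each Rian count there were 2.54 and 1.64 Meg3 counts with TSA, 24.0, 6.15 and 8.37 under GSK-343, and 0.851 and 1.16 with DMSO. The 3 groups did not overlap in this ratio, with 1.64 with TSA and 1.16 with DMSO the nearest values. The ratio was not tested, and its TSA and GSK-343 values come from the genes and groups used for the choice. The GSK-343 ratios rest on 4 to 21 Rian counts.

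**Figure D2:**
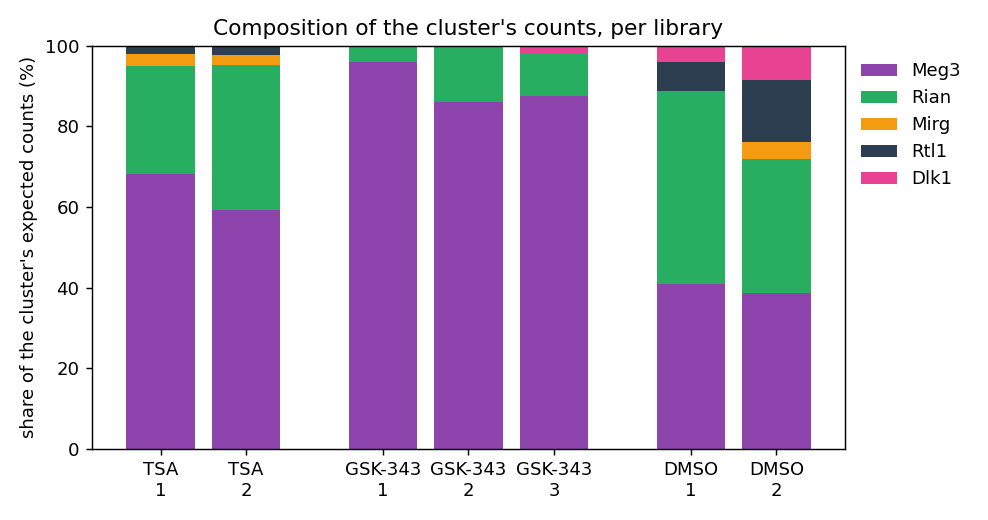
Share of the cluster's expected counts (percent, vertical axis) held by each gene in each TSA, GSK-343 and DMSO library. Meg3 holds 86.0% to 96.0% in GSK-343 libraries, 68.1% and 59.2% in TSA libraries and 40.8% and 38.6% in DMSO libraries. Dio3 has no counts and is not drawn.

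The level of Meg3 relative to DMSO depended on the readout. The deposited TPM of Meg3 in TSA libraries was 737.17 and 579.50, followed by 80.49, 97.43 and 27.08 with GSK-343, and 1.93 and 3.8 with DMSO. In TPM the GSK-343 libraries thus lay far above DMSO, while in CPM they overlapped. TPM divides by the length that RSEM, the quantification program, assigns to the gene from the transcripts it finds in each library. For Meg3, TSA libraries had lengths of 926.91 and 862.98 bases, GSK-343 libraries of 871.52, 781.75 and 796.96 bases, and DMSO libraries of 9578.61 and 8702.85 bases. GENCODE M21 lists 11 Meg3 transcripts of 421 to 14548 bases, with a median of 797. The log2 ratio of the mean lengths, GSK-343 over DMSO, was -3.48 for Meg3 and 0.00 for the median gene tested, and 1 gene of 14907 had a larger fall. For Rian it was -0.35.

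Tested with limma on log2(TPM + 1), Meg3 was 4.02 higher with GSK-343 than with DMSO (adjusted p = 0.00237). With 1 common length per gene in all libraries, an alternative chosen after the data were seen, the difference was 0.94 (limma adjusted p = 0.226). The rise with TSA relative to DMSO passed the test under all 17 alternatives, with log2 values from 2.62 to 7.86, the highest in TPM. Between TSA and GSK-343, which have similar Meg3 lengths and a similar gap between length and effective length, TPM and CPM gave the same order of libraries by group. The part of the read layout in the assigned length was not tested.

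**Figure D3:**
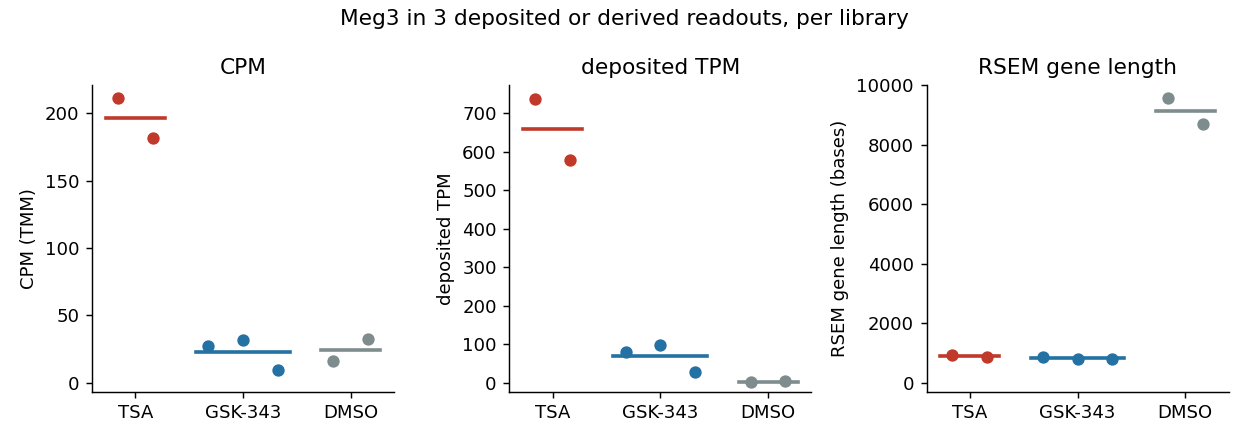
Meg3 in TSA, GSK-343 and DMSO libraries as TMM-scaled CPM, as the deposited TPM and as the gene length assigned by RSEM in bases, with points for libraries and lines for means. CPM overlaps between GSK-343 (9.71 to 31.4) and DMSO (16.4 and 32.6), TPM does not, and the length is 781.75 to 926.91 bases in treated libraries against 9578.61 and 8702.85 in DMSO libraries.

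Apart from the 6 genes, 98 genes of the interval were in the deposited tables, 12 of them with any count and 4 with at least 3. Gm37899, an RNA that GENCODE lists as still to be tested, between Rian and Mirg (chr12:109668869-109677585), had 38 and 34 expected counts with TSA, none in the 3 GSK-343 libraries, and 9 and 78.99 with DMSO. Its pattern over groups was like that of Rtl1, with TSA values between the DMSO values. The difference between TSA and DMSO was -0.13 ± 1.02 (edgeR adjusted p = 0.941). It was at least 14.9-fold lower with GSK-343 than with DMSO (edgeR adjusted p = 0.00105). Against DMSO library 1 alone the bound is 2.67-fold, and against library 2 alone 27.2-fold. The call held in 14 of 16 alternatives and missed the threshold with limma on log2(TPM + 1), with RSEM lengths or 1 length per gene (adjusted p up to 0.107).

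B830012L14Rik, an intergenic non-coding RNA further toward Mirg (chr12:109695586-109702587), had 16 and 5 expected counts with TSA, none with GSK-343 and 47 and 43.01 with DMSO. TSA libraries were lower than DMSO libraries here, the reverse of Meg3 and Rian, by a log2 value of -1.86 ± 1.04 that did not pass the test (edgeR adjusted p = 0.198). GSK-343 libraries were at least 14.4-fold lower than DMSO libraries (edgeR adjusted p = 0.000731), and all 17 alternatives passed the threshold. The alternatives for these RNAs were added after the data were seen. B830012L14Rik passed the filter on low counts through its DMSO libraries, the group where it is highest. Gm37899 passed through its TSA libraries and was not tested with GSK-343 and DMSO fitted alone. Both RNAs were thus kept for their level in groups other than GSK-343, where they are at 0. Gm26906, on the strand opposite the end of Meg3, and Gm26945, inside Rian, had 14.47 and 8 counts over all libraries and were not tested. Rtl1, Gm37899, B830012L14Rik and Mirg, which all lie beyond Meg3 on the map, had no read in any GSK-343 library. Rian and Gm26945, also beyond Meg3, had some. Of all 48709 genes, 15892 to 17239 had a count per library with GSK-343. In TSA libraries 19218 and 18307 did, and in DMSO libraries 24905 and 28492, so genes at 0 were more frequent with GSK-343 in general.

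**Figure D4:**
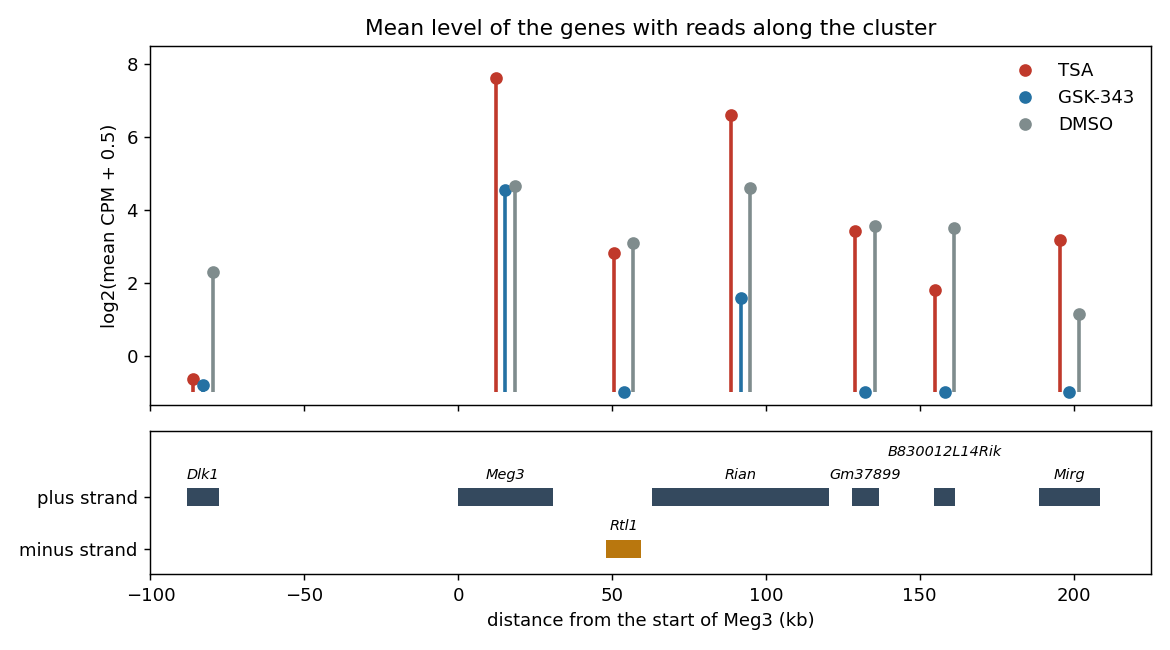
Mean level as log2(mean CPM + 0.5) of the cluster's genes with reads, in TSA, GSK-343 and DMSO libraries (n = 2, 3 and 2), against the distance from the start of Meg3 in kb, with gene positions by strand below. GSK-343 means reach the floor at Rtl1, Gm37899, B830012L14Rik and Mirg, and Dio3, 738.1 kb from Meg3 and at 0, is not drawn.

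Of the nearest expressed coding genes outside the cluster, Ppp2r5c rose with TSA relative to DMSO, as Meg3 and Rian did. Dync1h1, the dynein heavy chain gene 320 kb beyond Dio3, had 402 and 577 CPM with TSA, 458, 557 and 456 under GSK-343, and 592 and 486 with DMSO. These ranges overlapped, and its log2 differences from DMSO were -0.14 ± 0.33 with TSA and -0.14 ± 0.30 with GSK-343 (edgeR adjusted p = 0.78 and 0.742). Ppp2r5c, a regulatory subunit gene of protein phosphatase 2A, rose with both drugs relative to DMSO, by 1.11 ± 0.40 with TSA and 1.01 ± 0.37 with GSK-343 (edgeR adjusted p = 0.0487 and 0.0426).

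On the other side, Begain, a postsynaptic scaffold gene 385 kb before Dlk1, had 3.92 and 1.17 CPM with TSA, 2.83, 14.4 and 6.94 under GSK-343, and 0.225 and 0.782 with DMSO. It rose by 3.95 ± 1.20 with GSK-343 relative to DMSO (edgeR adjusted p = 0.0166), from few counts. For Wdr25 the difference in that comparison was 2.09 ± 0.87 (edgeR adjusted p = 0.0683). None of these 4 genes passed the test between TSA and GSK-343 (edgeR adjusted p from 0.282 to 1). A difference between Meg3 or Rian and these genes was not itself tested.

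**Figure D5:**
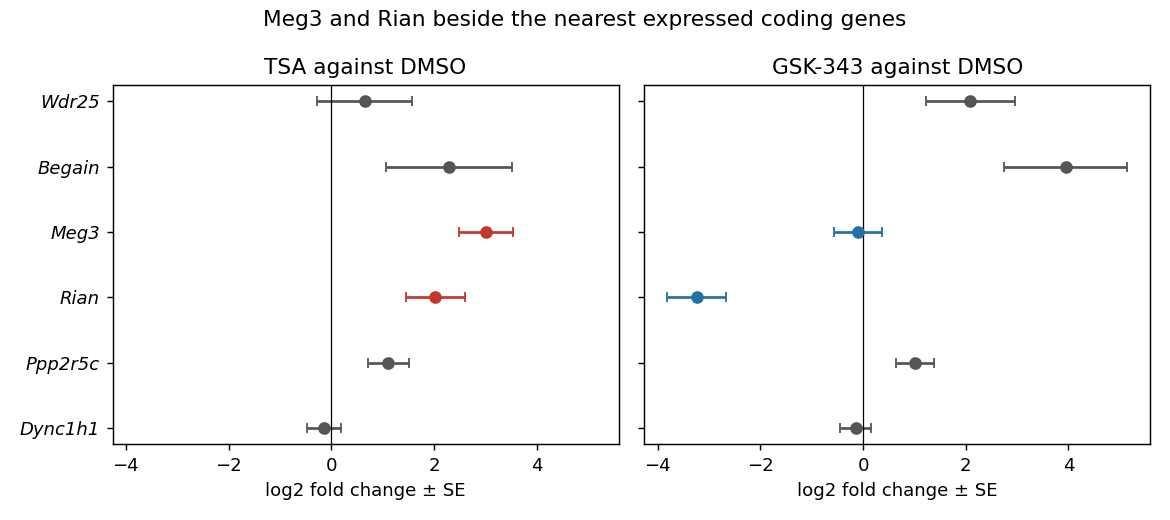
Log2 fold change ± SE for TSA against DMSO and GSK-343 against DMSO of Meg3, Rian and the nearest expressed coding genes on either side, in map order from top to bottom. Rian is at 2.03 with TSA and -3.24 with GSK-343, while Dync1h1 is at -0.14 in both.

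Other genes of imprinting and of the pathways that the cluster's proteins serve were read from lists chosen with earlier results of these data known. Over all 14907 genes, 1957 rose and 2402 fell with TSA relative to DMSO (median log2 change -0.05), 2695 rose and 3208 fell with GSK-343 relative to DMSO (median -0.04), and between TSA and GSK-343 752 were higher and 846 lower with TSA (median 0.00). Scaled to total counts without TMM factors, TSA gave 3871 higher and 1307 lower calls relative to DMSO (median 0.65), and GSK-343 gave 3948 higher and 2273 lower (median 0.42). Between the drugs the same scaling put 1020 genes higher and 431 lower in TSA libraries (median 0.20). Of 14 tested genes of imprinting control, 0 rose and 5 fell with TSA relative to DMSO, and 0 rose and 7 fell with GSK-343. With total count scaling these were 1 and 3 with TSA, and 0 and 5 with GSK-343. List medians were -0.46 and -1.51 (0.24 and -1.04 with total count scaling). The list is not only of genes that set or keep imprints: Tet1 with both drugs and Tet3 with TSA, genes of DNA methylation removal, were among those that fell. Dnmt3a, the DNA methyltransferase that sets imprints in germ cells, had 52.7 ± 18.5 CPM with TSA and 68.7 ± 18.0 with GSK-343, against 332 ± 43.1 with DMSO (SD, n = 2, 3 and 2). Its log2 changes were -2.65 and -2.27 (edgeR adjusted p = 0.000372 and 0.000191).

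Zfp445, a zinc finger protein that helps keep imprints, had 12.5 ± 3.45 CPM with TSA, against 1.68 ± 1.14 with GSK-343, and was the single gene of that list past the threshold between the drugs (2.88 ± 0.63, edgeR adjusted p = 0.0126). Its DMSO level was 43.8 ± 14.3 CPM. Of 43 tested imprinted genes elsewhere in the genome, 9 were higher and 4 lower with TSA than with GSK-343 (median 0.37). Usp29, a deubiquitinase gene next to Peg3, stood at 19 ± 5.89 CPM with TSA, against 0.725 ± 0.845 with GSK-343 (4.72 ± 0.84, edgeR adjusted p = 0.00497). Relative to DMSO, 5 rose and 2 fell with TSA and 6 rose and 14 fell with GSK-343 (medians -0.19 and -0.12). With total count scaling the GSK-343 split turned to 12 higher and 10 lower. Mest, a paternally expressed hydrolase gene, rose by 2.24 ± 0.40 with TSA (edgeR adjusted p = 0.00123).

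Several long non-coding RNAs outside the cluster were lower in treated than in DMSO libraries. Their list includes the imprinted Kcnq1ot1, H19, Airn and Snhg14. Of the 18 in the fit, TSA raised 1 and lowered 5 relative to DMSO, 0 rose and 10 fell with GSK-343 relative to DMSO, and between the drugs 3 were higher and 1 lower with TSA (medians -0.68, -1.74 and 0.28). With total count scaling 1 rose and 2 fell with TSA relative to DMSO, and the median turned to 0.02. With GSK-343 that scaling gave 0 higher and 7 lower (median -1.27). Malat1, an abundant nuclear RNA, had 533 ± 101 CPM with TSA and 364 ± 131 with GSK-343, against 13667 ± 1248 with DMSO. Its log2 changes were -4.68 and -5.23 (edgeR adjusted p = 8.25e-06 and 5.39e-07). Intergenic non-coding RNAs as a class took 0.519% and 0.427% of counts with TSA, 0.42%, 0.541% and 0.35% under GSK-343, and 3.15% and 4.16% with DMSO. GENCODE lists Meg3 and Mirg in this class, but Rian as a processed transcript and Rtl1 as protein-coding. Nuclear protein-coding genes took 85.4% and 78.2% of counts with TSA, 93.4%, 86.3% and 86.7% under GSK-343, and 62.5% and 63.4% with DMSO. The part of these class shifts in the levels of the cluster's genes was not tested.

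Among genes of the drugs' targets, 1 rose and 0 fell of 10 tested Polycomb repressive complex 2 genes with TSA relative to DMSO, 2 rose and 2 fell with GSK-343, and none passed between the drugs. Ezh2 itself had 50.2 ± 18.7 CPM with TSA, against 20.3 ± 4.54 with GSK-343 (1.30 ± 0.42, edgeR adjusted p = 0.0578). Of 11 histone deacetylase genes, 1 rose and 2 fell with TSA (4 and 0 with total count scaling), 2 rose and 2 fell with GSK-343, both relative to DMSO, and none passed between the drugs. Hdac3, the gene that rose with TSA, also rose with GSK-343 (edgeR adjusted p = 0.00837 and 0.000766). It had 122 ± 0.67 CPM with TSA and 163 ± 14.7 with GSK-343, against 47.3 ± 2.07 with DMSO.

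With Dio3 at 0, the other genes of thyroid hormone handling were read. Of 14 tested, 0 rose and 1 fell with TSA (3 and 1 with total count scaling) and 5 rose and 0 fell with GSK-343, both relative to DMSO, and between the drugs 1 was higher and 2 lower with TSA. Slc16a10, a transporter of thyroid hormone and aromatic amino acids, had 43.0 ± 0.623 CPM with TSA, against 8.53 ± 4.87 with GSK-343 (2.34 ± 0.55, edgeR adjusted p = 0.0175). The corepressor gene Hr, a thyroid hormone target in brain, had 6.56 ± 1.81 CPM with TSA, against 50.0 ± 6.42 with GSK-343 (edgeR adjusted p = 0.00768). Thrb, the receptor gene needed for hearing, had 215 ± 95.5 CPM with TSA, against 648 ± 417 with GSK-343 (edgeR adjusted p = 0.0466). Of 7 genes of selenoprotein synthesis, which Dio3 protein needs, 1 rose with TSA, 2 rose with GSK-343 relative to DMSO, and none fell.

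For Dlk1, 14 tested relatives and processing genes of the Notch pathway were read. Of these 3 rose and 4 fell with TSA relative to DMSO (5 and 2 with total count scaling), 3 rose and 3 fell with GSK-343 relative to DMSO, and between the drugs 0 were higher and 2 lower with TSA. Jag1, a Notch ligand gene of supporting cells, had 351 ± 56.7 CPM with TSA and 526 ± 107 with GSK-343, against 1279 ± 382 with DMSO. Hes5, a Notch target gene, had 254 ± 12 CPM with TSA, against 656 ± 108 with GSK-343 (edgeR adjusted p = 0.0136). Of 13 genes that process miRNAs and small nucleolar RNAs, 1 rose and 1 fell with TSA and 3 rose and 2 fell with GSK-343, both relative to DMSO, and between the drugs 0 were higher and 2 lower with TSA. Dgcr8, the partner of Drosha in cutting miRNA precursors, rose by 1.18 ± 0.42 with TSA and 1.45 ± 0.40 with GSK-343 (edgeR adjusted p = 0.0474 and 0.00974).

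Markers of cell types moved with the drugs as well. Of 17 tested neuron markers, 7 rose and 1 fell with TSA relative to DMSO, 5 rose and 4 fell with GSK-343 relative to DMSO, and between the drugs 7 were higher and 2 lower with TSA. Stmn2, a microtubule regulator of neurons, had 108 and 98.8 CPM with TSA, 1.98, 3.16 and 1.85 under GSK-343 and 13.9 and 13.3 with DMSO, the same order of groups as Rian. Map2, a microtubule protein gene of dendrites, had 193 and 310 CPM in TSA libraries, 55.8, 19 and 31.0 in GSK-343 libraries and 51.2 and 31.3 in DMSO libraries. Snap25, a synaptic vesicle fusion gene, stood at 73.9 and 64.5 CPM with TSA, 4.14 to 12.7 with GSK-343 and 1.57 and 3.13 with DMSO, a rise of 4.88 ± 0.68 with TSA relative to DMSO (edgeR adjusted p = 0.000212). For Mapt, the tau gene, TSA libraries lay 3.73 ± 0.62 above GSK-343 libraries (edgeR adjusted p = 0.00354). Tubb3, another defining marker, was low, with 1.68 and 3.81 CPM in TSA libraries, 1.13 to 4.16 in GSK-343 libraries and 7.19 and 0.521 in DMSO libraries. Summed over the list, neuron markers were 2302 and 1349 CPM with TSA, 1801 to 2021 with GSK-343 and 1307 and 1274 with DMSO. Gata3, Calb1 and Uchl1 of the list are also made by cochlear epithelium, and the other 21 summed to 823 and 794 CPM with TSA, 98.6 to 317 with GSK-343 and 149 and 155 with DMSO. That shorter sum, set up after the values were seen, was highest in both TSA libraries, as Meg3 and Rian were. The sum over the whole list was not, since the lower TSA library (1349 CPM) lay below all GSK-343 libraries. In TSA libraries Map2 and Syt1 (245 and 205 CPM) were the largest parts of the shorter sum. Nefh did not follow it, with 0.56 and 0.587 CPM with TSA, 0 to 0.487 with GSK-343 and 2.02 and 2.09 with DMSO. Nor did Rbfox3, with 4.2 and 0, 0.567 to 1.7, and 4.04 and 1.3 CPM in the same groups. The part of neuron RNA in the Meg3 and Rian levels was not tested.

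Supporting cell markers summed to 14512 and 11740 CPM with TSA, 27573 to 31613 with GSK-343 and 25862 and 22045 with DMSO, and between the drugs 1 of 30 tested was higher and 14 lower with TSA. Relative to DMSO, 2 rose and 15 fell with TSA (median -1.06), and 5 rose and 9 fell with GSK-343 (median 0.02). With total count scaling these were 4 and 7 with TSA (median -0.35), and 11 and 8 with GSK-343. Between the drugs that scaling put 1 higher and 7 lower with TSA. Fabp7, a lipid carrier gene of the list, had 9.49 ± 6.78 CPM with TSA, against 309 ± 9.8 with DMSO (edgeR adjusted p = 2.7e-05). The part of this shift in the Meg3 and Rian levels was not tested. Hair cell markers summed to 2895 and 735 CPM with TSA, 685 to 1796 with GSK-343 and 563 and 435 with DMSO. Of 23 tested, 11 rose with TSA and 10 with GSK-343 relative to DMSO, none fell, and none passed between the drugs. Glia markers summed to 391 and 357 CPM with TSA, 808 to 1155 with GSK-343 and 571 and 683 with DMSO, and mesenchyme markers to 2097 and 1615, 3941 to 6034, and 3192 and 3529 CPM in the same groups. Endothelial markers summed to 19.9 and 15.0 CPM with TSA, 9.92 to 14.6 with GSK-343 and 38.6 and 40.9 with DMSO. Blood and melanocyte lists had 3 tested genes each, with summed levels up to 37.7 and 89.3 CPM in any library.

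Likeness of pattern was measured over the 5 treated libraries, as the root mean square difference of mean-centred log2(CPM + 0.5). The genes outside the interval nearest to Meg3 were Gm44288 (0.104), Fbxo41 (0.219), Lyst (0.240), Peg10 (0.247) and Gas2l3 (0.274). Peg10, itself an imprinted retrotransposon-derived gene, had 22.4 and 18.2 CPM with TSA, 3.12, 2.92 and 1.16 under GSK-343 and 6.74 and 15.9 with DMSO. Nearest to Rian were Stmn2 (0.461), Rgs17 (0.479), Wdr17 (0.495), Lypd1 (0.516) and Igsf1 (0.524). Rian and Meg3 lay 1.16 apart, farther than Meg3 from Rtl1 (0.637) or Mirg (0.730). Rtl1 and Mirg are at 0 in the GSK-343 libraries, where the added 0.5 limits how low a value can go. These distances describe 5 libraries and carry no test.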

How the data were processed

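Gene counts were read in 7 libraries prepared from GFP-sorted cells with a single-cell RNA kit. Reads were processed with STAR, RSEM and DESeq2 on mm10, per the submitters' processing notes; versions are not given in the sources used here. The deposited expected counts are RSEM estimates per gene, not scaled between libraries. The TPM values, as deposited, take each gene's effective length into account and add up to the same total in every library, and the deposited lengths in bases are RSEM's weighted transcript lengths, per the file headers. Of 48709 genes, 48349 matched GENCODE M21 without the version suffix.

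Expected counts were rounded and tested with edgeR 4.0.16 (R 4.3.3; TMM factors, filterByExpr, robust quasi-likelihood) in a joint model (4 residual degrees of freedom) with a biological coefficient of variation of 0.43. SE was derived from the fold change and the F statistic. Bounds use 3 counts per library. The members, lists and tests were chosen with earlier results of these data known. The named genes are the 6 members, interval genes with at least 3 counts, the nearest 2 expressed coding genes on each side, up to 3 genes per list and comparison by smallest adjusted p (those described are a part of these), and 5 genes nearest in pattern to Meg3 and to Rian. Tubb3 and Sox9 were added as defining markers after their values were seen. Gata3, Calb1, Uchl1, Syt1, Nefh and Rbfox3 were likewise added to describe their list. On data simulated for 14907 genes, 8-fold changes were recovered in 69.6% (TSA against DMSO), 71.2% (GSK-343 against DMSO) and 69.4% (TSA against GSK-343). In the same order, 4-fold changes were recovered in 33.3%, 55.4% and 33.8%, and 2-fold changes in 3.08%, 2.82% and 4.76%. Most changes of 2-fold would thus be missed. Replicates differed beyond sampling noise (chi-square per degree of freedom 14.7 to 43.1). Alternatives included DESeq2 1.42.0 and limma 3.58.1 on log2(TPM + 1) and log2(TPM + 0.1). Bounds against single DMSO libraries, list counts with total count scaling and the neuron sum without 3 genes were added after the data were seen. Figures used Python 3.11.15 and matplotlib 3.10.9. Sequences are from RefSeq tables of GRCm38.p6.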

Additional observations from a re-analysis of the deposited data

How the results depend on the processing

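Groups of 2 and 3 libraries limit every test, and Mirg, Rtl1 and Dlk1 rest on few counts. Settings that leave 1 library in a group assume that it varies like the other groups. Over 17 alternatives, Meg3 stayed higher with TSA than with DMSO and past the threshold (log2 2.62 to 7.86). Rian stayed higher in that comparison (1.81 to 3.77) and lower with GSK-343 than with DMSO (-4.33 to -1.88). The GSK-343 difference missed the threshold with limma on log2(TPM + 1) (-1.88, adjusted p = 0.0529) and on log2(TPM + 0.1) (-2.32, adjusted p = 0.0641). The cause was not tested. Mirg passed the threshold for TSA against DMSO in 4 of 17 alternatives.

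Meg3 for GSK-343 against DMSO, -0.10 by default, moved from -0.48 without DMSO library 1 to 0.50 without DMSO library 2, with 0.27 without GSK-343 library 3, and turned to 0.37 with total count scaling, 0.00 with no low-count filter, 0.30 with the replicate number as a block, 4.02 with limma on log2(TPM + 1), 4.41 on log2(TPM + 0.1) and 0.94 on TPM with 1 length per gene. Of these, the deposited TPM settings passed the threshold. Rtl1 for TSA against DMSO, -0.27, turned to 0.43 with total count scaling, 0.05 with the replicate block, 1.18 without DMSO library 2 (-0.95 without library 1), and 0.67, 1.13 and 0.89 in the same 3 TPM settings, and passed in none.

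Counts of the cluster's genes past the threshold were 2 for TSA against DMSO (1 without DMSO library 1 or TSA library 2, 3 in 4 alternatives) and 3, all lower, for GSK-343 against DMSO. The second count was 4 lower with no low-count filter, DESeq2 or without DMSO library 1, where Dlk1 was tested, 2 lower in 7 alternatives, 1 higher and 1 lower in the deposited TPM settings, and 1 with only those groups fitted. Over all genes, TSA against DMSO gave 4359, 1984 to 5224 with 1 library left out (2404 and 2894 without DMSO library 1 and 2, 2575 and 1984 without TSA library 1 and 2), 7530 and 6876 in TPM with a pseudocount of 1 and 0.1, and 9432 with 1 length per gene. TSA against GSK-343 gave 1598, against 852 with the replicate block, 1007 and 619 in TPM, and 162 to 2111 with 1 library left out: 162 without TSA library 2, 827 without GSK-343 library 3 and 979 without GSK-343 library 2. Higher calls made up 5039 of the 7530 and 834 of the 1007 in TPM, against 1957 of 4359 and 752 of 1598 in counts, and the median gene moved by 0.67 and 0.24 in log2(TPM + 1). Deviations of same-numbered libraries from their group means correlated from -0.0936 to 0.0395. In groups of 2 libraries the deviations mirror each other, so these values cannot show whether same-numbered libraries share a preparation.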
